A study of Mus musculus with 6 samples.

Results

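The miR-17 to miR-92 cluster and its paralogue, the miR-106b/25 cluster, were followed here through 10 mature microRNAs (miRNAs), each found by name among the 620 rows of the deposited table. They are miR-17-5p, miR-18a-5p, miR-19a-3p, miR-20a-5p, miR-19b-3p and miR-92a-3p of the first cluster, and miR-106b-5p, miR-106b-3p, miR-93-5p and miR-25-3p of the second. The rule that named them used no measured value, but they were chosen with earlier results of these data known. Small RNA was sequenced from extracellular vesicles, membrane-bound particles released by cells. The labels name mouse PBMCs (peripheral blood mononuclear cells, which are lymphocytes and monocytes) as their source. All libraries are labelled as genotype WT, 3 from vesicles of untreated cells (control 1 to 3) and 3 labelled IS-stimulated (IS 1 to 3), where the labels do not spell out IS. The series title names salvianolic acid B, with which no library analysed here is labelled, and the labels give no strain, age, dose or time. Whether the libraries of a group stem from different animals or cultures is not labelled either, so the spread behind each test is that of these libraries and may be technical.

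A miRNA is cut from a hairpin in a longer transcript, either arm (5p or 3p) can be loaded into a silencing complex, and the seed, bases 2 to 8, pairs with target messages. The miR-17 to miR-92 transcript is driven by Myc, keeps B cell progenitors alive by holding down the pro-apoptotic Bim, and is known as an oncogene in B cell lymphoma. The miR-106b/25 hairpins sit in Mcm7, a gene of DNA replication induced by E2F factors, and their products restrain the cell cycle inhibitor p21 and Bim.

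The 10 members carry 5 seeds, and the sequences are shown because the seed groups and the near-identical pairs bear on every level given below. All 10 matched the RefSeq table of build GRCm38.p6. Capitals mark the seed. The miR-17 seed was shared by 4 members, 2 from each cluster hairpin set, and miR-18a-5p carried a seed of its own that is close to it.
miR-17-5p: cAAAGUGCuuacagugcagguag
miR-20a-5p: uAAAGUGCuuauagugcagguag
miR-106b-5p: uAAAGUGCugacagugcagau
miR-93-5p: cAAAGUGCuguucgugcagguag
miR-18a-5p: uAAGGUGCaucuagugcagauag
The miR-19 seed was found in 2 members, both of the first cluster, and miR-19b-3p is also encoded on chromosome X.
miR-19a-3p: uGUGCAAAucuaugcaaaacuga
miR-19b-3p: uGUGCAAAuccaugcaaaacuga
The miR-92 seed joined miR-92a-3p of the first cluster to miR-25-3p of the second.
miR-92a-3p: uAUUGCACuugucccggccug
miR-25-3p: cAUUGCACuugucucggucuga
The other arm of the miR-106b hairpin shared its seed with no other member.
miR-106b-3p: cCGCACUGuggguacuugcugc

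Several of these sequences are close enough that the way reads were assigned could move counts between rows, and that way is not given in the sources used here. With positions counted from 1 at the 5′ end and the base of the first-named miRNA written first, miR-19a-3p and miR-19b-3p differ by U11C alone. For miR-17-5p and miR-20a-5p the differences are C1U and C12U, and for miR-92a-3p and miR-25-3p they are U1C, C14U and C18U over the 21 bases compared. The lengths ran from 21 to 23 bases, so members differ little in length. How well each sequence is captured in a library was not tested. Levels, ratios and shares of different members below therefore compare read counts, not numbers of molecules.

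The 6 hairpins of the first cluster lie within 836 bases of chromosome 14 (115043671 to 115044506, plus strand, GRCm38.p6), in the annotated exon of the non-coding host gene Mir17hg. The 3 hairpins of the second lie within 498 bases of chromosome 5 (138165321 to 138165818, minus strand), Mir106b in an intron of Mcm7 and Mir93 and Mir25 in introns of 2 Mcm7 transcripts and an exon of 1 other. Identical mature sequences of miR-19b-3p and miR-92a-3p are also encoded by Mir19b-2 and Mir92-2 on chromosome X (52741983 to 52742066 and 52741838 to 52741928, minus strand), so their reads cannot be assigned to 1 locus. These positions come from the reference annotation, and the authors may have used another build.

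Together the 10 members held 0.843 to 1.04% of each library. The totals per library were between 125731 and 435468 counts, which makes 1 count equal to 2.30 to 7.95 CPM (counts per 1000000 counts of the library), and the limit that a count of 0 allows, 3 counts, equal to 6.89 to 23.9 CPM. Without molecular identifiers such limits, and the intervals below, cover counting error only. In vesicle libraries fewer particles or cells of a type and less RNA per cell cannot be told apart.

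A pair of members from the Mcm7 locus led the order of levels in these vesicles. Over the 6 libraries the mean level was 3554 CPM for miR-25-3p, 2765 for miR-106b-3p, 1736 for miR-92a-3p, 449 for miR-93-5p, 431 for miR-20a-5p, 160.3 for miR-17-5p, 145 for miR-106b-5p, 83.8 for miR-19b-3p, 12.3 for miR-18a-5p and 8.83 for miR-19a-3p. Read within libraries, miR-25-3p was above miR-106b-3p in 6 of 6, miR-92a-3p above miR-93-5p in 6 of 6, miR-19b-3p above miR-18a-5p in 6 of 6 (with 0 counts of miR-18a-5p in 2 of them) and miR-20a-5p above miR-17-5p in 5 of 6. The remaining neighbours in that order changed places between libraries, with miR-106b-3p above miR-92a-3p in 4 libraries, miR-93-5p above miR-20a-5p in 4, miR-17-5p above miR-106b-5p in 3, miR-106b-5p above miR-19b-3p in 4 and miR-18a-5p above miR-19a-3p in 4. The levels did not follow the order of the hairpins along the chromosome 14 transcript, where the last, miR-92a-3p, was the highest and the inner miR-18a-5p and miR-19a-3p were the lowest.

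**Figure D1:**
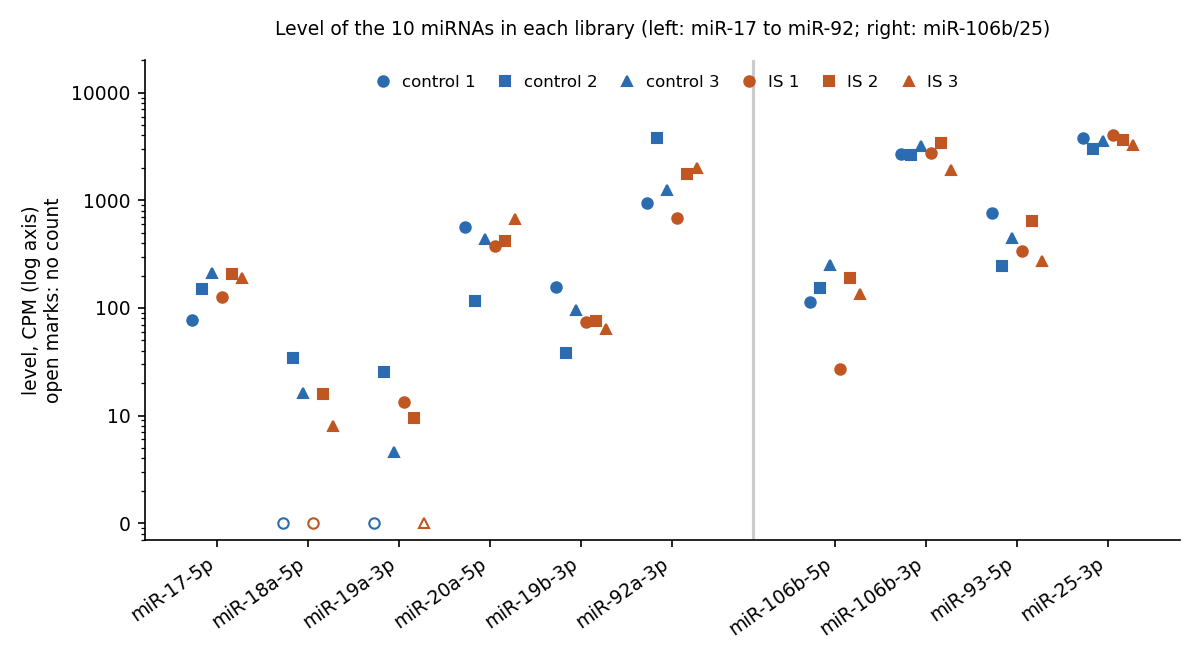
Level of each of the 10 members in each library, in CPM on a log axis, with control libraries in blue, IS libraries in orange and open marks for a count of 0. miR-25-3p lies between 2980.0 and 4068 CPM in all 6 libraries, while miR-92a-3p spans 690.3 to 3754 CPM.

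Within the miR-17 to miR-92 cluster most counts belonged to miR-92a-3p, which in endothelial cells is known to limit vessel growth. It stood at 951, 3754 and 1254 CPM in control 1 to 3 and at 690.3, 1755 and 2012 CPM in IS 1 to 3. Control 2 was thus far above the rest, and its exact 95% binomial interval of 3511 to 4009 CPM lay above that of the next highest library, IS 3, at 1772 to 2276 CPM. The groups overlapped.

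The next most abundant member of that cluster was miR-20a-5p, a member of the miR-17 seed family. Its level was 566, 115 and 436 CPM in control 1 to 3 and 375, 419 and 676 CPM in IS 1 to 3. Control 2, where miR-92a-3p was highest, held the lowest value of miR-20a-5p. For miR-17-5p, which gives the cluster its name and targets p21 and Bim, the values were 77.7, 149 and 209 CPM in control and 127 (IS 1), 208 (IS 2) and 191 CPM (IS 3). Its lowest library was control 1, not control 2, and the groups overlapped.

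The miR-19 pair, which in mouse lymphoma carries much of the oncogenic activity of the cluster, was scarce. miR-19b-3p stood at 155, 38.3 and 96.4 CPM in control and 73.7, 75.6 and 63.6 CPM in IS. All 3 IS values lay inside the wide control range, again with control 2 lowest. miR-19a-3p had 0, 6 and 2 counts in control and 2, 3 and 0 in IS, and miR-18a-5p had 0, 8 and 7 counts in control and 0, 5 and 1 in IS. These 2 members reached 3 counts in 2 and 3 libraries, were removed by the filter on low counts, and get no fold change.

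In the miR-106b/25 cluster the level of miR-25-3p was nearly the same in every library. It was 3799, 2980.0 and 3566 CPM in control 1 to 3 and 4068, 3639.8 and 3269 CPM in IS 1 to 3. Its SD of log2 CPM over the 6 libraries was 0.16, the lowest among the 206 miRNAs tested, whose median was 0.89 (0.59 over the 50 most abundant), while counting error alone would give 0.053. The rank rests on scaling by library totals: with TMM scaling (trimmed mean of M values) the SD was 0.37 and miR-25-3p was at rank 16 from the lowest, and with the 10 most abundant miRNAs left out of the totals at rank 11.

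From the same host gene, miR-106b-3p was also even. It stood at 2708, 2648 and 3162 CPM in control and at 2721, 3429 and 1925 CPM in IS, with an SD of log2 CPM of 0.29 (rank 7 by library totals and 24 with TMM scaling), which became 0.16 (rank 1) without IS 3. IS 3 was the lowest and IS 2 the highest, so the 2 extremes were both IS libraries. The more variable miR-93-5p, of the miR-17 seed family, had 755, 247 and 443 CPM in control and 335, 646 and 270.4 CPM in IS. Control 1 and IS 2 were its highest libraries and control 2 its lowest.

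The arms of the miR-106b hairpin were far apart, with the 3p arm above the 5p arm in every library. The 5p arm, the one that carries the miR-17 seed, had 31, 36 and 109 counts in control (115, 153 and 250.3 CPM) and 4, 60 and 17 counts in IS (26.8, 189 and 135 CPM). The 3p arm exceeded it 23.3-fold, 17.1-fold and 12.6-fold in control 1 to 3 and 90.3-fold, 18.0-fold and 13.9-fold in IS 1 to 3. IS 1, with 4 counts of the 5p arm, stood apart, and its 5p level had an exact 95% binomial interval of 7.30 to 68.6 CPM. The log2 ratio of 5p to 3p was -4.10 ± 0.44 in control and -4.82 ± 1.46 in IS (mean ± SD, n = 3 per group), with overlapping groups. The difference of -0.72 became 0.11 without IS 1. For miR-17, miR-92a, miR-93 and miR-25 the listed arm was above the other arm with a row in every library. That other arm reached at most 47.3 CPM. For miR-92a it comes from Mir92-1, while reads of miR-92a-3p may also come from Mir92-2. Both arms of the Mir18 hairpin were scarce, and in control 1 miR-18a-3p had 1 count and miR-18a-5p had 0.

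**Figure D2:**
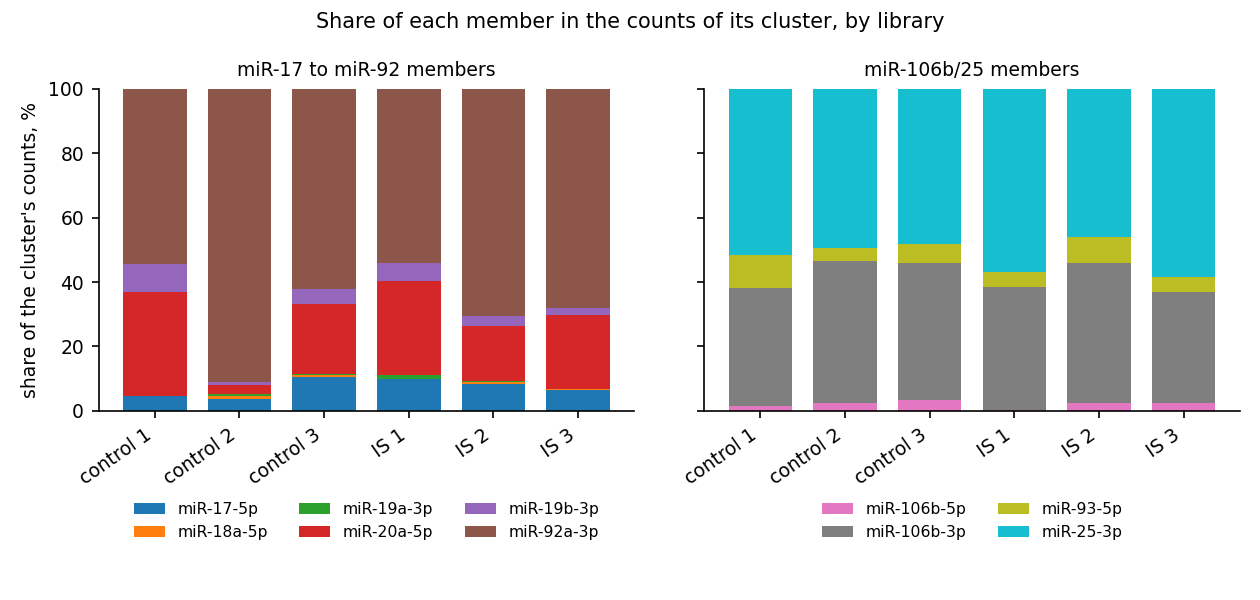
Share of each member in the counts of its own cluster, in percent, 1 bar per library. miR-92a-3p takes 91.2% of the miR-17 to miR-92 counts in control 2 against 53.9 to 70.7% in the other libraries, and miR-25-3p takes 46.1 to 58.4% of the miR-106b/25 counts.

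Members of the same cluster were compared within each library, where the library total cancels out. On average miR-92a-3p took 66.8%, miR-20a-5p 21.0%, miR-17-5p 7.20% and miR-19b-3p 4.26% of the chromosome 14 set, and miR-25-3p took 51.7%, miR-106b-3p 39.8%, miR-93-5p 6.33% and miR-106b-5p 2.11% of the Mcm7 set. In the plot of shares, control 2 departs from the other 5 libraries in the first set, while in the second its share of miR-25-3p (49.4%) lies among theirs. In control 2 the ratio of miR-92a-3p to miR-20a-5p was 32.1, against 1.68 to 4.18 elsewhere, and it was the only library with miR-17-5p above miR-20a-5p.

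The Mcm7 set outweighed the chromosome 14 set in every library. Its summed level was 7376, 6028 and 7422 CPM in control 1 to 3 and 7151, 7904 and 5599 CPM in IS 1 to 3. For the chromosome 14 set the sums were 1749.7, 4115 and 2016 CPM in control and 1280.1, 2483 and 2951 CPM in IS. The first exceeded the second by 4.22-fold, 1.46-fold and 3.68-fold in control and by 5.59-fold, 3.18-fold and 1.90-fold in IS, lowest in control 2 and highest in IS 1.

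Neither sum separated the groups. On the log2 scale the chromosome 14 sum was 11.25 ± 0.66 in control and 11.04 ± 0.64 in IS, a difference of -0.21 that became 0.17 without control 2. The Mcm7 sum was 12.75 ± 0.17 and 12.73 ± 0.26, a difference of -0.02. Their log2 ratio, chromosome 14 over Mcm7, was -1.50 ± 0.83 and -1.69 ± 0.78, and all 3 quantities overlapped between groups (mean ± SD, n = 3 per group, no test of a sum over members was made).

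Of the 2 seeds found at both loci, the miR-92 seed was the more abundant and the more even, with an SD of the summed log2 CPM over the 6 libraries of 0.19 against 0.48 for the miR-17 seed. miR-92a-3p and miR-25-3p together held 4749.7, 6734 and 4820.1 CPM in control and 4759, 5395 and 5281 CPM in IS. The 4 members with the miR-17 seed held 1513, 663 and 1339 CPM in control and 865, 1462 and 1273 CPM in IS. Control 2 was the highest library for the first seed and the lowest for the second. The miR-19 seed stayed between 63.6 and 155 CPM in all libraries.

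**Figure D3:**
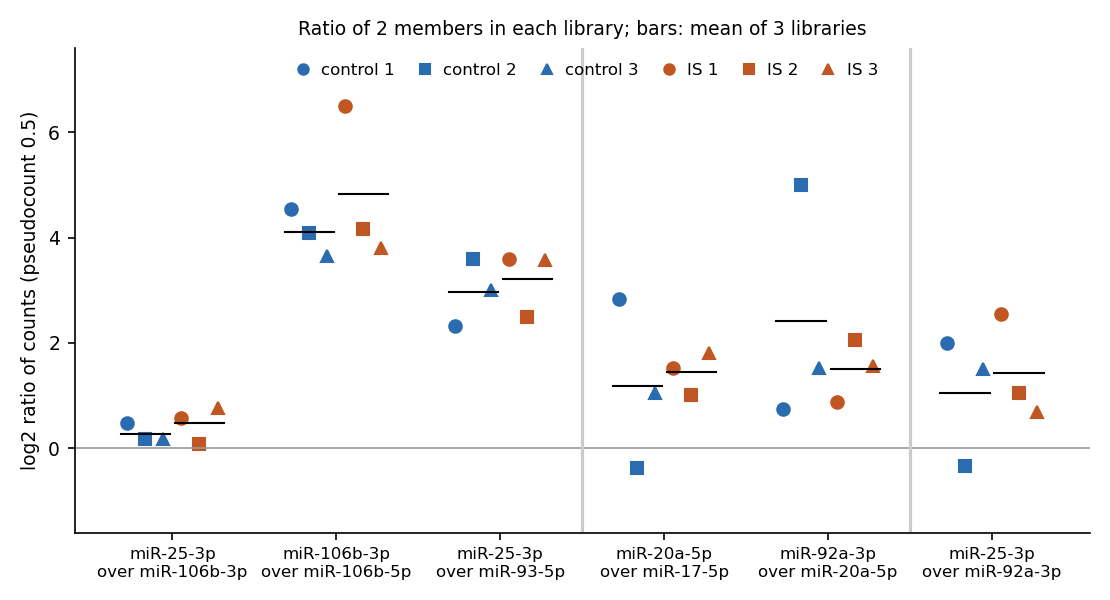
Log2 ratio of the counts of 2 members in each library (pseudocount 0.5), with control in blue, IS in orange and black bars for the mean of 3 libraries; the first 3 ratios are within miR-106b/25, the next 2 within miR-17 to miR-92 and the last across clusters. The log2 ratio of miR-25-3p to miR-106b-3p is 0.086 to 0.76 in all libraries, while that of miR-92a-3p to miR-20a-5p is 5.01 in control 2 and 0.75 to 2.06 elsewhere.

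How closely members kept their proportions was described by the SD, over the 6 libraries, of the log2 ratio of their counts. The closest pair was miR-25-3p with miR-106b-3p, from the outer hairpins of the Mcm7 set with Mir93 between them, at 0.27, where counting error alone gives 0.082. Of the 21115 pairs of tested miRNAs, 0.521% had a lower SD. Those pairs include scarcer miRNAs and repeated rows, and no share among pairs of like abundance was taken. Each of the 2 levels was even by itself (SD of log2 CPM 0.16 for miR-25-3p and 0.29 for miR-106b-3p). A low SD of their ratio therefore need not reflect proportions kept by a shared transcript. Outside both clusters, let-7i-5p had an SD of 0.20 against the summed count of the Mcm7 set. The ratio of miR-25-3p to miR-106b-3p was 1.40, 1.13 and 1.13 across control 1 to 3, against 1.49, 1.06 and 1.70 across IS 1 to 3, with overlapping groups. Next among the pairs of members came miR-19b-3p with miR-93-5p at 0.39, which come from different chromosomes and whose counting error is 0.41.

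Pairs from 1 cluster were set beside pairs across clusters, and the order of the medians moved with single libraries. Reads of miR-19b-3p and miR-92a-3p may also come from chromosome X, so pairs with them need not stem from 1 transcript. The median SD was 1.04 over the 6 tested pairs of the chromosome 14 set, 0.81 over the 6 pairs of the Mcm7 set and 0.92 over the 16 pairs across clusters, against 1.36 over all pairs of tested miRNAs. Without control 2 the chromosome 14 median was 0.65, below the 0.75 of the pairs across clusters. Without IS 1 the Mcm7 median was 0.51, against 0.88 across clusters. Within the Mcm7 set, every pair with the scarce 5p arm of miR-106b had an SD of 1.05 to 1.17. Pairs share members and libraries, so these medians are descriptions and no test was made.

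**Figure D4:**
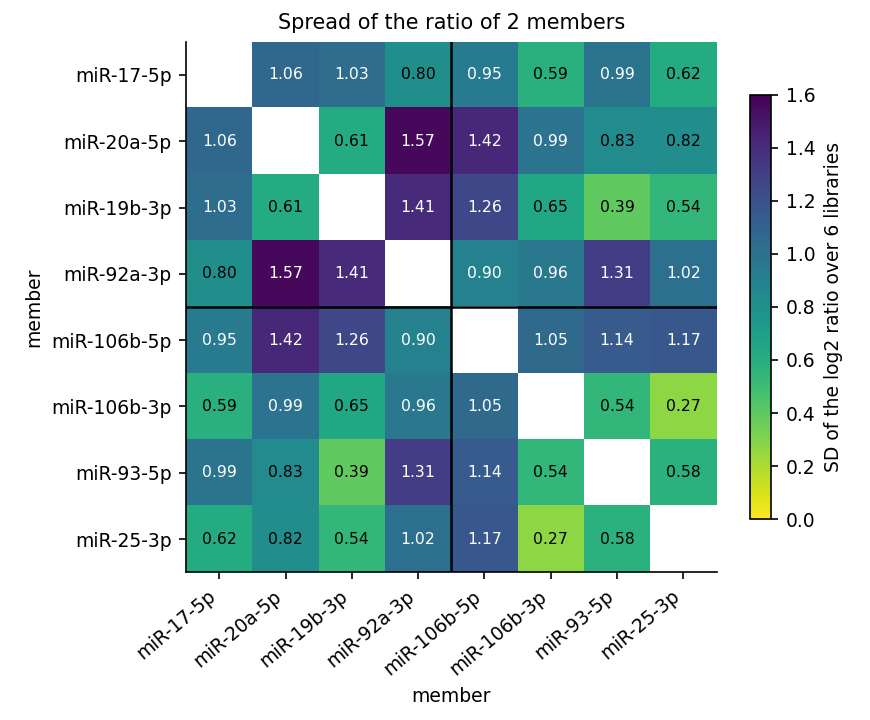
SD over the 6 libraries of the log2 ratio of 2 members, for the 8 tested members, with black lines between the clusters (first 4: miR-17 to miR-92; last 4: miR-106b/25). The lowest value is 0.27 for miR-25-3p with miR-106b-3p and the highest 1.57 for miR-20a-5p with miR-92a-3p.

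Whether IS stimulation went with a different level of any member was tested with the edgeR quasi-likelihood test on all counts, and 0 of the 8 tested members passed an adjusted p of 0.05, as did 0% of the 206 miRNAs tested. At an unadjusted p under 0.05 the count was 0 of 8 members (smallest 0.511) against 1.46% of all tested miRNAs, and with DESeq2 0 of 10 members passed and 0 were under 0.05 unadjusted. The log2 fold change, IS minus control, was above 0 in 3 members and below 0 in 5, where 52.9% of all tested miRNAs were above 0. The median over the 8 was -0.11, beside 0.022 over all tested.

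In the chromosome 14 set the fitted log2 fold changes pointed both ways. For miR-92a-3p, at 1986 ± 1538 CPM (mean ± SD, n = 3) in control and 1486 ± 701 CPM in the IS libraries, the value was -0.40 (SE 0.59, adjusted p = 0.996 in edgeR) and 0.35 without control 2 when the scaling factors from the whole set were retained. For miR-20a-5p, at 372 ± 232 and 490.2 ± 162 CPM, it was 0.30 (SE 0.67) and became -0.15 without control 2 in the same way. The values were 0.34 (SE 0.67) for miR-17-5p and -0.47 (SE 0.90) for miR-19b-3p, and for both the effect of leaving out control 1 hung on the scaling. miR-17-5p was then at -0.20 with the factors refitted and 0.12 with them retained, and miR-19b-3p at -0.093 refitted and 0.26 retained. For miR-92a-3p and miR-20a-5p the sign turned without control 2 under either scaling (0.16 and -0.39 refitted).

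In the Mcm7 set the 2 abundant members had values near 0 with the narrowest intervals. For miR-25-3p, at 3448 ± 422 CPM in control libraries against 3659 ± 400.1 CPM after IS, the log2 fold change was 0.12 (95% confidence interval -0.92 to 1.15, adjusted p = 0.996 in edgeR). For miR-106b-3p, at 2839 ± 281 and 2692 ± 752 CPM, it was -0.0096 (-1.08 to 1.06), with a sign that turned under RLE scaling, and the sign of miR-25-3p turned with some libraries left out (-0.32 without control 2). The values were -0.22 (SE 0.67) for miR-93-5p and -0.53 (SE 0.80) for miR-106b-5p. The latter was below 0 under every scaling, filter, tool and left-out library tried, all of which reuse the same libraries. Without IS 1, which had 4 counts of miR-106b-5p, it was -0.23 with the factors refitted and -0.11 with them retained. Exact two-sided permutation tests of log2 CPM gave p from 0.5 to 0.9 over the 8 members, where 3 libraries against 3 allow no p below 0.1. The edgeR intervals reached 1.04 to 1.98 on either side, so this fit could not tell smaller changes from 0. They are limits for unadjusted tests, and the adjustment over 206 miRNAs can only raise the change needed. The fit also treated the libraries as unpaired. The libraries closest in counts were control 1 with IS 1, control 2 with IS 3 and control 3 with IS 2. What a fit with these pairs as blocks could detect was not tested.

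**Figure D5:**
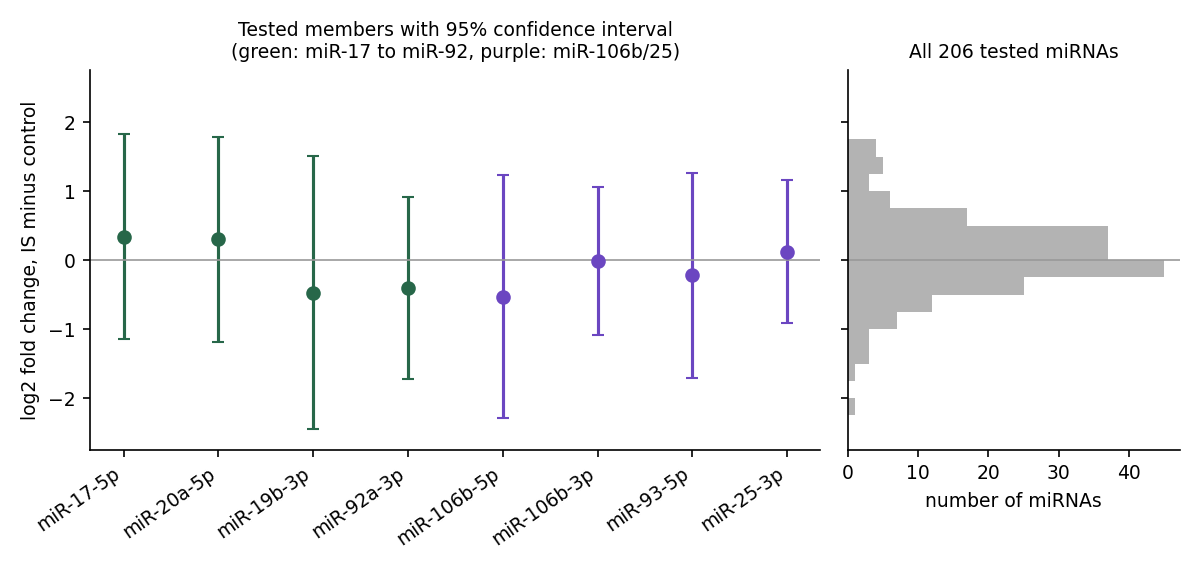
Left, log2 fold change of each of the 8 tested members (IS minus control, edgeR) with its 95% confidence interval; right, the number of all 206 tested miRNAs by log2 fold change. Every member's interval spans 0, and the values lie between -0.53 for miR-106b-5p and 0.34 for miR-17-5p.

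Of the 8 tested members, 0 had IS values in CPM all outside the control range, where 1.46% of all tested miRNAs did. Of the 28 ratios between tested members, 2 did, beside 3.48% of all ratios of 2 tested miRNAs. The log2 ratio of miR-17-5p to miR-106b-5p, which share a seed but not a locus, was -0.28 ± 0.26 in control and 0.91 ± 1.06 in IS, and without IS 1, which had 4 counts of miR-106b-5p, the IS mean was 0.31 and the difference from control 0.59. That of miR-20a-5p to miR-19b-3p was 1.85 ± 0.32 in control and 2.69 ± 0.56 in IS (mean ± SD, n = 3 per group), and the difference of 0.84 became 0.52 without IS 3. Their hairpins in the first cluster are neighbours, but miR-19b-3p is also encoded on chromosome X. Both pairs were picked out after their values were seen, each holds a member with under 10 counts in some library, and they get no test.

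The other products of these loci and of their X-linked paralogue were scarce. Of 18 related miRNAs looked for, 9 had a row and 1, miR-363-3p, passed the filter. miR-363-3p is encoded beside Mir92-2 on chromosome X and carries the miR-92 seed. It had 0, 41 and 3 counts in control (0, 174 and 6.89 CPM) and 7, 3 and 13 counts in IS (46.9, 9.45 and 103 CPM). Control 2 was thus the highest library for miR-363-3p as well as for miR-92a-3p, IS 3 was the second highest for both, and control 1 had no count of miR-363-3p. miR-20b-5p of the same X-linked set had 5 counts in control 2, 2 in control 3, 4 in IS 2 and 0 in the rest. Whether reads of miR-92a-3p came from chromosome X was not tested. Among the other arms, miR-92a-1-5p, which marks the chromosome 14 hairpin, had 7, 0 and 11 counts in control and 0, 15 and 3 in IS. It had no count in control 2, the highest library for miR-92a-3p, and none in IS 1, the lowest (690.3 CPM).

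The vesicles held markers of several sources. In every library the red cell sum and the liver sum were each above the leukocyte sum, while the labels name PBMCs. Leukocyte miRNAs (7 of 7 with a row) summed to 9982 to 26259 CPM in the control libraries and 11031.5 to 32866 CPM in the IS libraries. Red cell miRNAs (4 of 5) summed to 93435 to 186873 CPM against 120628 to 223132 CPM, and liver miRNAs (2 of 2) to 24325 to 113012 CPM against 32744.5 to 107525 CPM. Platelet and endothelial miRNAs (2 of 2) summed to 9055 to 24461 CPM against 4834 to 26477 CPM, and muscle miRNAs (3 of 3) to 311 to 2194 CPM against 1604 to 4698 CPM. miR-155-5p was the only marker with a row and a count of 0 in some library, IS 1. Leukocyte and red cell sums were both highest in IS 2 and control 3, the libraries with the highest miR-106b-3p, and the platelet and endothelial sum was highest in IS 3 and control 2, the libraries with the highest miR-92a-3p. The remaining libraries did not keep these orders. The platelet and endothelial sum was 4834 CPM in IS 2 and 19402 CPM in control 1, where miR-92a-3p stood at 1755 and 951 CPM. The red cell sum was 148261 CPM in IS 3 and 114850 CPM in control 1, where miR-106b-3p stood at 1925 and 2708 CPM. In IS 2 miR-142a-5p made up 23909 CPM of the leukocyte sum, and single markers did not all follow that sum. miR-223-3p was lowest in IS 2 (18.9 CPM) and highest in IS 3 (255 CPM) and control 2 (208 CPM), and miR-342-3p was lowest in control 3 (89.6 CPM). Nearly all of the platelet and endothelial sum was miR-126a-3p (26231 CPM in IS 3 and 24423 CPM in control 2). The other marker of that list, miR-126a-5p, was also highest in IS 3 (247 CPM). In control 2 it stood at 38.3 CPM, below its 126 CPM in control 3. Nearly all of the liver sum was miR-122-5p, highest in control 1 (112546 CPM) and IS 1 (107023 CPM). In those libraries miR-192-5p was lowest (466 and 503 CPM). The part of these markers in the levels was not tested.

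Outside the related miRNAs, the patterns nearest to each set over the 6 libraries were found by the smallest SD of the log2 ratio to its summed count, among 185 candidates. For the Mcm7 set they were let-7i-5p at 0.20, miR-872-5p at 0.21 and miR-30c-5p at 0.24. For the chromosome 14 set they were miR-200c-3p at 0.34, miR-192-5p at 0.35 and miR-148b-3p at 0.37. The ratios for miR-872-5p and miR-200c-3p varied by no more than counting error gives (0.44 and 0.37).

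Base composition ran along with level among the members. Of the 3 most abundant, miR-25-3p had 50% G and C, miR-106b-3p 63.6% and miR-92a-3p 57.1%, and the scarce miR-19a-3p had 34.8%. Across the 10 members the Spearman correlation of G and C content with mean level was 0.79, as a description over miRNAs that share libraries and, in part, sequence. Across the 182 tested miRNAs with a RefSeq sequence it was -0.12.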

How the data were processed

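Per the labels' protocols, RNA came from the exoRNeasy Maxi kit and libraries from the NEBNext Multiplex Small RNA kit. The submitters' processing notes name CASAVA 1.8 and Bowtie without roles. Build, miRBase release, filters and read assignment are not given in those sources. The authors deposited 620 rows with a read count and a TPM per library, per the file headers. The deposited TPM equals the count over the library total times 1000000 (largest difference 4.8e-10) and is called CPM here.

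Counts were tested with edgeR 4.0.16 in R 4.3.3 (quasi-likelihood, TMM, filterByExpr with minimum count 10 and total 15, Benjamini-Hochberg adjustment over the 206 miRNAs left, group as the only term), with DESeq2 1.42.0 and limma 3.58.1 as alternatives. Log2 ratios used a pseudocount of 0.5 counts. No 2 libraries agreed within sampling noise (lowest chi-square per degree of freedom 23.5). None of the 13 pairs of repeated rows (counts within 2 or 6%, total of 50 or more) held a member. Figures and summaries used Python 3.11.15, numpy 2.4.6, scipy 1.17.1 and matplotlib 3.10.9. Scripts were tested on simulated data.

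All 10 members, their related miRNAs and, per set, the 3 nearest patterns were named by rule. Members, lists and tests were chosen with earlier results of these data known.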

Additional observations from a re-analysis of the deposited data

How the results depend on the processing

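The number of miRNAs and of members past the edgeR threshold was 0 under all alternatives run, with 0 members under an unadjusted p of 0.05 in each. Of the same-numbered libraries only control 1 and IS 1 paired (correlation of deviations 0.36, -0.41 and -0.17 for replicates 1 to 3). By this correlation control 2 was closest to IS 3, and control 3 to IS 2. These cross-group pairs also differed least in counts, with chi-square over degrees of freedom of 23.5, 41.9 and 65.3. The next pair, IS 1 with IS 3, was at 87.4. No fit with these pairs as blocks was made. With the block of same-numbered replicates 0 miRNAs passed, 0 of 206 under an unadjusted p of 0.05. The log2 fold change of miR-106b-3p was -0.0096 and turned to 0.055 with RLE factors, 0.051 with no filter, 0.00092 with repeated rows left out and 0.070 with DESeq2. When each library was dropped in turn and scaling was refitted, the log2 fold change ran from -0.20 to 0.63 for miR-17-5p, -0.39 to 0.63 for miR-20a-5p, -1.14 to -0.093 for miR-19b-3p, -0.97 to 0.16 for miR-92a-3p, -1.25 to -0.23 for miR-106b-5p, -0.38 to 0.0074 for miR-106b-3p, -0.79 to 0.17 for miR-93-5p and -0.32 to 0.072 for miR-25-3p. With the original scaling factors retained, it ran from 0.12 to 0.61, -0.15 to 0.95, -0.88 to 0.26, -0.68 to 0.35, -1.22 to -0.11, -0.23 to 0.28, -0.71 to 0.48 and -0.10 to 0.35 for the same members in that order. In that fit miR-106b-3p was at 0.097 without control 1, miR-93-5p at 0.097 without IS 3 and miR-25-3p at -0.026 without control 2. The median SD of log2 ratios within the chromosome 14 set ran from 0.65 (without control 2) to 1.16, and within the Mcm7 set from 0.51 (without IS 1) to 0.87. The log2 ratio of the 2 sums, -0.19 IS minus control, was 0.37 with the mean of log2 counts. The causes were not tested. The alternatives for the rank of miR-25-3p and miR-106b-3p by spread, and for the 2 ratios whose groups did not overlap, were added after the data were seen; with a library left out the ranks ran from 1 to 5 and from 1 to 10. The smallest libraries, IS 3 and IS 1, limit what can be said of miR-18a-5p, miR-19a-3p and miR-106b-5p.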
